A study of Rattus norvegicus with 63 samples.

Results

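PRKAA1, the alpha1 catalytic subunit of the AMP-activated protein kinase (AMPK), was measured in rat liver as total protein and as the form phosphorylated at the activation loop threonine (P-T172). These 2 analytes are all whose name begins with the symbol PRKAA1 among the 158 analytes on the arrays, which comprised 104 unmodified proteins and 54 modified forms. Across 15 test compounds, the log2 difference of total PRKAA1 from the labelled vehicle controls was below 0 in 12 and above 0 in 3. Of the 12, 6 share the animals of control set 1, so these are not independent. The decrease after phenobarbital sodium (PB) passed the test, where 3.16% of all comparisons of analytes passed. It was called under 7 of 16 alternative settings, but not after each animal was centred on its median signal. Nor was it called against all methylcellulose controls, with the deposited matrix of log2 ratios, or when any single PB animal was left out. PRKAA1 P-T172 was lower in 11 of 15 compounds, 5 of them compared with set 1, with no difference past the test. The ratio of the phosphorylated to the total signal was computed in each animal. It differed among the 15 comparisons as a whole, where 34.7% of 49 such ratios did, while no single compound passed. It was highest after PB and lowest after piperonylbutoxide (PBO).

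AMPK is a complex of a catalytic alpha subunit with a beta and a gamma subunit, and it senses the energy state of the cell through the binding of AMP, ADP and ATP to gamma. Phosphorylation of this threonine of alpha by upstream kinases such as LKB1 switches the kinase on. Active AMPK restrains the synthesis of fatty acids, cholesterol, glucose and protein in the liver and favors fatty acid oxidation. The gene Prkaa1 lies on rat chromosome 2, from 55967766 to 56003450 in the RefSeq annotation of GRCr8. A second gene encodes the alpha2 subunit, whose activation loop is closely similar. The analyte name does not say whether the antibodies separate alpha1 from alpha2.

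Liver lysates of 63 male Wistar Hanover rats, 8 to 10 weeks old, were printed on reverse-phase protein arrays (ZeptoMARK), on which each array is probed with a single antibody and read as relative fluorescence intensity (RFI). Each of the 21 groups held 3 animals, and all animals were dosed by gavage. The study asked whether early molecular changes separate carcinogens that act without damaging DNA (non-genotoxic, NGC) from those that damage it (genotoxic, GC) and from non-carcinogens (NC). Treated animals with histopathological changes were picked from larger dose groups, according to the study's methods, so the groups describe selected animals.

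The animals treated for 14 days received acetamide (AA) at 3000 mg/kg per day, cefuroxime (CFX) at 250, cyproterone acetate (CPA) at 100, dehydroepiandrosterone (DHEA) at 600, ethionine (ETH) at 200, methylcarbamate (Mcarb) at 400, nifedipine (Nif) at 3, or PB, whose dose the labels do not give. Those treated for 7 days received C.I Direct Black (CIDB) at 146 mg/kg per day, dimethylnitrosamine (DMN) at 4, methapyrilene HCl (MPy) at 60 or thioacetamid (TAA) at 19.2. Those treated for 3 days received diethylstilbestrol (DES) at 10 mg/kg per day, PBO at 1200 or Wy-14643 (Wy) at 60. The 18 control animals received the vehicle alone, 12 methylcellulose in sets 1, 2, 5 and 6 and 6 corn oil in sets 3 and 4. Set 1 is the labelled control of DHEA, Wy, AA, TAA, Mcarb and MPy, set 2 of CFX and Nif, set 3 of CIDB and DMN, set 4 of CPA, set 5 of DES, ETH and PBO, and set 6 of PB. Compounds with a common set share its animals, so their differences are not independent. All methylcellulose controls and set 4 are labelled 14 days and set 3 is labelled 7 days. The labelled dosing time of DES, MPy, PBO, TAA and Wy therefore differs from that of their control set, whereas the study's methods describe controls matched in time. Which of these holds was not settled here.

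Both analytes gave a positive signal in all animals. Total PRKAA1 ranged from 0.160 to 0.767 RFI with a median of 0.356, and PRKAA1 P-T172 from 0.704 to 2.56 RFI with a median of 1.75. The signals come from different antibodies, so neither their relative size nor their ratio gives the fraction of PRKAA1 that is phosphorylated. HNF4A, a hepatocyte transcription factor, was measured at 1.07 to 2.93 RFI in all animals. On the arrays were 7 of 11 hepatocyte marker symbols, as 12 analytes. Not all of these were positive throughout. GLUL was at or below 0 in 10 animals, and CYP2B6_1, CYP2B6_3 and CYP2E1_2 in 1 animal each. Of 20 marker symbols of biliary, stellate, endothelial and Kupffer cells 0 were on the arrays. Fewer cells of a type and less protein per cell cannot be told apart in whole liver.

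Total PRKAA1 followed the overall signal of an animal closely. Over the 63 animals its Spearman correlation with the animal's median RFI over all analytes was 0.774, and 0.818 for deviations from the group means, against a median of 0.536 and 0.602 over all analytes. Only 5 analytes followed the median more closely. For PRKAA1 P-T172 the same correlations were 0.451 and 0.510, and for the log2 ratio they were -0.303 and -0.223. These are descriptions over animals that share arrays. Animal medians ran from 0.425 to 0.882 RFI. The highest belonged to replicate 1 of control set 6, which also had the highest total PRKAA1, and the lowest to replicate 3 of control set 4, which had the lowest value of both PRKAA1 analytes.

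**Figure D1:**
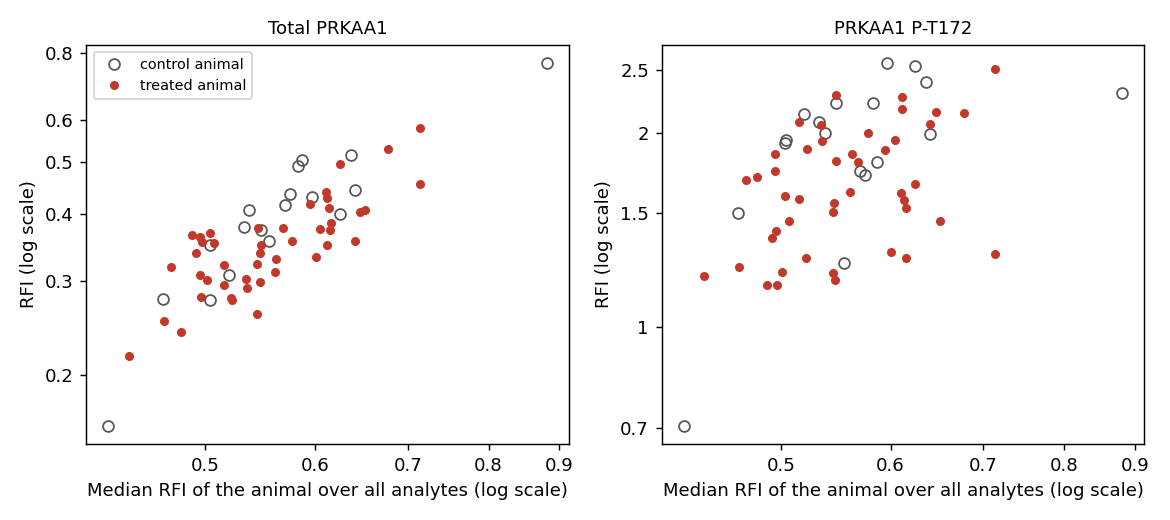
Total PRKAA1 (left) and PRKAA1 P-T172 (right) in RFI against the median RFI of the same animal over 158 analytes, both axes on a log scale, with open symbols for 18 control animals and filled symbols for 45 treated animals. Total PRKAA1 rises with the animal median (Spearman 0.774) more closely than P-T172 does (0.451).

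Ordered by mean log2 level, total PRKAA1 was lowest in corn oil control set 4 and highest in methylcellulose control set 6, and both ends of the order were therefore untreated animals. None of the 20 pairs of neighbors in that order differed, with 0 at an unadjusted p below 0.05 in limma, and the largest step was 0.30 log2. For PRKAA1 P-T172 the order ran from DHEA to control set 6 in steps of at most 0.13 log2, and again 0 of 20 neighbors differed. Of all 210 pairs of groups, 13 differed in total PRKAA1 (limma, adjusted over the analytes of a pair but not over pairs), where 3.85% of all analytes differed. Control set 6 was in 7 of these, and control set 4 in 5.

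**Figure D2:**
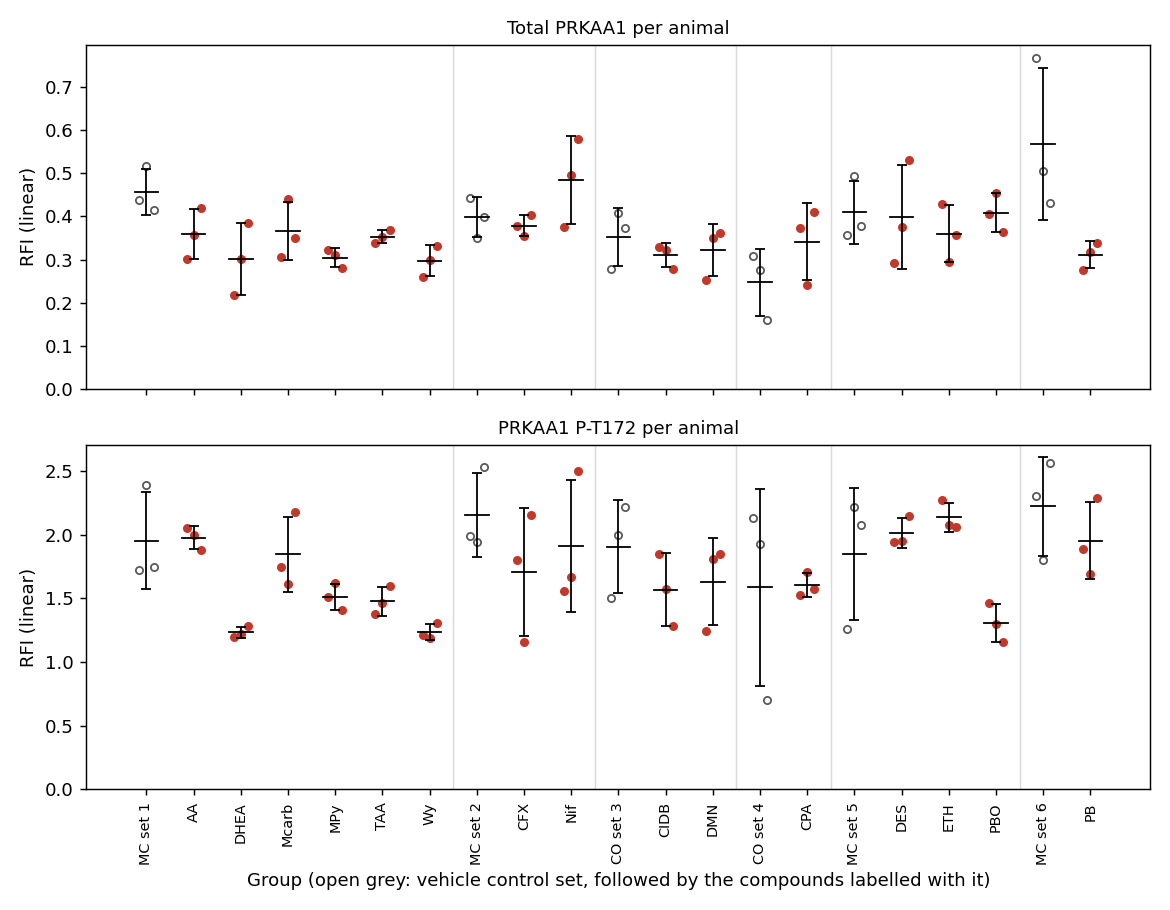
Total PRKAA1 (top) and PRKAA1 P-T172 (bottom) per animal in RFI on a linear axis, with the mean and SD of 3 animals, for each vehicle control set (open, MC for methylcellulose and CO for corn oil) and the compounds labelled with it (filled). DHEA and Wy lie below all set 1 controls in both panels, and set 6 holds the highest total PRKAA1 value (0.767).

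In the 30 comparisons of a PRKAA1 analyte with its labelled controls, 1 was called at an adjusted p below 0.05, where the background was 3.16% of all comparisons of analytes. At an unadjusted p below 0.05 in limma, total PRKAA1 was lower in 4 compounds (DHEA, MPy, PB and Wy) and higher in 1 (CPA). P-T172 was lower in 2 (DHEA and Wy). At this threshold the share of all analytes was 17.1% in DHEA, 8.23% in MPy, 25.3% in PB, 17.1% in Wy and 17.7% in CPA. Treated and control animals did not overlap in 9 of these 30 comparisons, all with lower values after treatment, while groups of 3 did not overlap in 16.1% of all comparisons of analytes, 9.16% with lower values. Of those 9, 8 share control set 1. A single comparison of 3 with 3 animals cannot give an exact permutation p below 0.10, which was the value in each of these cases.

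PB, a barbiturate that induces cytochrome P450 enzymes in hepatocytes, went with the largest difference in total PRKAA1. The animals treated with PB had 0.276, 0.318 and 0.339 RFI, and those of control set 6 had 0.767, 0.505 and 0.431 RFI. All treated animals were below all controls, and also below all 12 methylcellulose controls, whose lowest value was 0.351. The same held for Wy, with a highest value of 0.332, and MPy, with 0.323. The share of all analytes that lay below all 12 is not given here. Total PRKAA1 fell by 0.83 on the log2 scale (SE 0.23, limma adjusted p = 0.0232), from a mean of 0.568 ± 0.177 to 0.311 ± 0.0317 RFI (SD, n = 3), in a comparison in which 5.06% of analytes were called, 3.16% with lower values, and groups did not overlap in 19.9%. The median log2 difference over all analytes was -0.29, and the animal medians were lower by 0.41 log2 in the PB group. After each animal was centred on its median the difference was -0.42 (adjusted p = 0.0621). Without replicate 1 of control set 6 it was -0.59 (adjusted p = 0.408), and against all methylcellulose controls -0.53 (adjusted p = 0.0953). Leaving out any of the PB animals also ended the call, with values of -0.75, -0.85 and -0.89.

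PRKAA1 P-T172 in the PB group was 1.89, 1.69 and 2.29 RFI, within the range of 1.80 to 2.56 in control set 6 for 2 of the animals and below it for the third. The log2 difference was -0.18 (SE 0.25, adjusted p = 0.598). The phosphorylated to total ratio had a higher mean, with 6.82, 5.30 and 6.75 after PB against 3.00, 3.57 and 5.96 in the controls. The groups overlapped in the replicate with 5.30 and the control with 5.96. The log2 difference of the ratio was 0.65 (SE 0.23, adjusted p = 0.127 over 49 ratios of a modified to a total analyte). Without replicate 3 of control set 6 it was 0.93 (adjusted p = 0.00974).

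DHEA and Wy, which both act as peroxisome proliferators in rodent liver, went with lower values of both analytes, while the mean ratio stayed near that of the controls. Total PRKAA1 was 0.217, 0.301 and 0.385 RFI after DHEA and 0.260, 0.298 and 0.332 RFI after Wy, against 0.437, 0.516 and 0.416 RFI in their shared control set 1. No treated animal reached the lowest control in either group. The log2 differences were -0.63 for DHEA (SE 0.23, adjusted p = 0.0900) and -0.62 for Wy (SE 0.23, adjusted p = 0.0810). Neither passed the test.

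PRKAA1 P-T172 was 1.20, 1.22 and 1.28 RFI after DHEA and 1.21, 1.19 and 1.31 RFI after Wy, against 1.72, 2.39 and 1.75 RFI in control set 1. These 6 animals lay close together and below every control of the set. The log2 difference was -0.65 in each (SE 0.25, adjusted p = 0.110 for DHEA and 0.0960 for Wy). In these comparisons 6.33% of analytes were called after DHEA and 8.86% after Wy, and the groups did not overlap in 26.1% and 27.6% of analytes. The median log2 difference over all analytes was -0.18 and -0.10. The ratio differed by -0.01 for DHEA (95% interval -0.48 to 0.45) and by -0.03 for Wy (-0.49 to 0.44), intervals that still allow a change of about the size seen for PBO.

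The choice of reference moved these 2 compounds over the threshold. Against all 12 methylcellulose controls, where 16.5% of analytes were called for DHEA and 13.3% for Wy, total PRKAA1 differed by -0.61 after DHEA (adjusted p = 0.0127) and -0.60 after Wy (adjusted p = 0.0140). P-T172 differed by -0.71 after DHEA (adjusted p = 0.00801) and by -0.70 after Wy (adjusted p = 0.00665). After centring, total PRKAA1 in Wy differed by -0.53 and passed (adjusted p = 0.00709, 14.6% of analytes called), whereas in DHEA no call was made against the labelled set. The animal medians were lower by 0.21 log2 in DHEA and by 0.09 log2 in Wy.

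The other 4 compounds labelled with set 1 also had lower mean total PRKAA1, and none passed the test. After MPy, an antihistamine that is toxic to the liver, total PRKAA1 was 0.323, 0.311 and 0.280 RFI and P-T172 was 1.51, 1.62 and 1.41 RFI. After TAA total PRKAA1 was 0.338, 0.353 and 0.369 RFI and P-T172 was 1.37, 1.46 and 1.60 RFI. All of these values were below the lowest set 1 control of the same analyte. The log2 differences in MPy were -0.58 for total PRKAA1 (adjusted p = 0.311) and -0.35 for P-T172 (adjusted p = 0.768), where no analyte was called (0%) and groups did not overlap in 21% of analytes. In TAA they were -0.36 and -0.39 (adjusted p = 0.747 for both), where 3.16% of analytes were called and 25.6% did not overlap. The animal medians were 0.25 log2 lower in TAA, and the TAA difference in total PRKAA1 was -0.11 after centring. AA, in which oxygen stands in place of the sulfur of TAA, was given at another dose and for another time, so no test was made between them. Its values were 0.302, 0.356 and 0.418 RFI for total PRKAA1 and 2.05, 2.00 and 1.88 RFI for P-T172.

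The mean of total PRKAA1 lay above that of the controls after CPA and Nif, without passing the test. After CPA, a steroidal antiandrogen, the values were 0.373, 0.241 and 0.410 RFI, and those of corn oil control set 4 were 0.307, 0.276 and 0.160 RFI. The groups overlapped, and the log2 difference of 0.48 did not pass (SE 0.23, adjusted p = 0.262). The values after Nif, a calcium channel blocker, were 0.376, 0.497 and 0.580 RFI against 0.443, 0.351 and 0.399 RFI in set 2, a log2 difference of 0.27 (adjusted p = 0.941) that was -0.08 with the deposited matrix. PBO lay at the level of set 5, with 0.406, 0.455 and 0.365 RFI against 0.356, 0.492 and 0.379 RFI. The log2 difference was 0.01 (adjusted p = 0.998), and its sign changed in 7 of 15 alternatives. Without replicate 3 of control set 4, the animal with the lowest median, the CPA difference was 0.19.

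PBO, an inhibitor of cytochrome P450 that is used with insecticides, had low P-T172 at a total level near that of its controls. PRKAA1 P-T172 was 1.46, 1.30 and 1.16 RFI after PBO against 1.26, 2.22 and 2.07 RFI in control set 5. A control of 1.26 lay among the treated animals, and the log2 difference was -0.46 (SE 0.25, adjusted p = 0.308). Against all methylcellulose controls it was -0.63 (adjusted p = 0.0301, 12% of analytes called). The log2 difference of P-T172 was above 0 in 4 compounds and did not pass in any. It was 0.25 after ETH, an analogue of methionine (adjusted p = 0.986), 0.17 after CPA (adjusted p = 0.661), 0.16 after DES, a synthetic estrogen (adjusted p = 0.827), and 0.03 after AA (adjusted p = 0.993). The sign rested on single control animals, since the CPA difference was -0.34 without replicate 3 of control set 4, and without replicate 7 of control set 5 the DES difference was -0.09 and the ETH difference -0.0070. The ETH animals had 2.27, 2.08 and 2.06 RFI and the DES animals 1.94, 1.95 and 2.15 RFI, all within the range of 1.26 to 2.22 RFI of set 5 except the highest ETH animal.

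**Figure D3:**
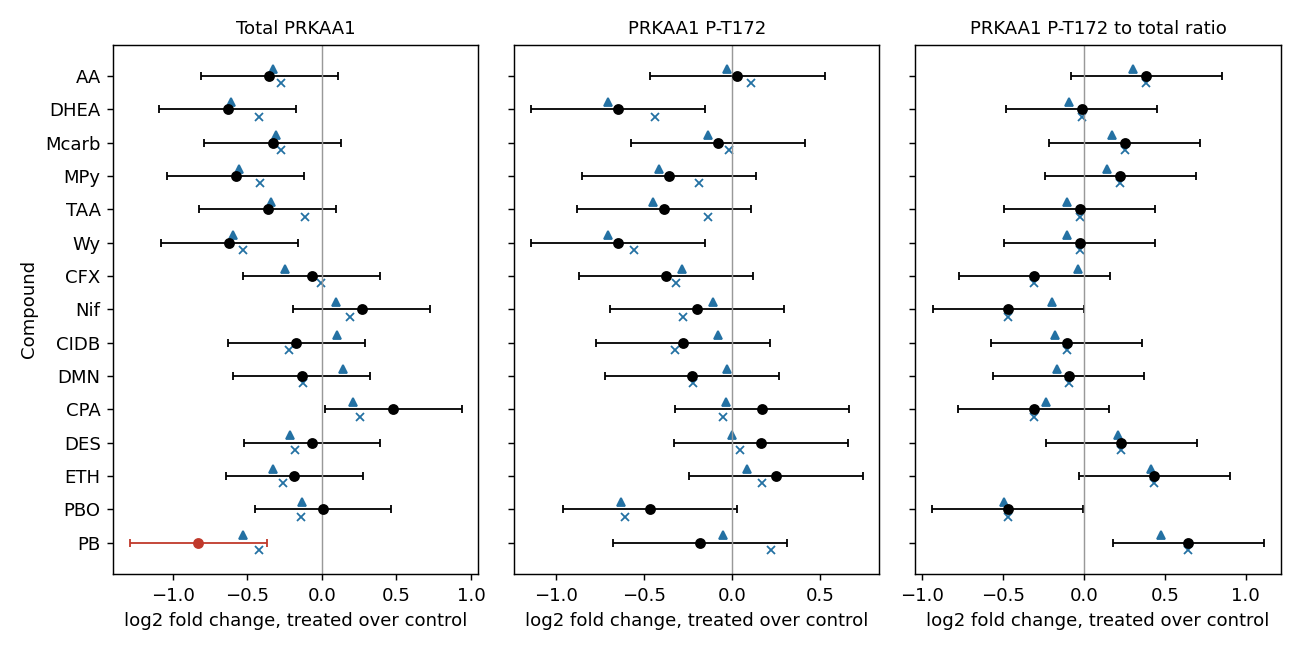
Log2 fold change of each compound over its labelled control set for total PRKAA1, PRKAA1 P-T172 and their ratio, as points with 95% intervals of the limma fit (red where called), with the value after centring each animal on its median (crosses) and against all controls of the vehicle (triangles). PB is the only called comparison, at -0.83 for total PRKAA1, and lies closer to 0 under both alternatives.

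The ratio of P-T172 to total PRKAA1 was tested once over all 15 comparisons, and it passed (moderated F test, adjusted p = 0.0370, rank 12 of 49 ratios), where 34.7% of the ratios passed. Total PRKAA1 ranked 32 of 158 analytes in the same kind of test (adjusted p = 0.0984) and P-T172 ranked 35 (adjusted p = 0.125), where 18.4% of analytes passed. After centring, where 24.1% of analytes passed, total PRKAA1 passed (adjusted p = 0.0235) and P-T172 was at an adjusted p of 0.0501. No ratio of a single compound was called, where the background was 6.94% of comparisons of ratios. An unadjusted p below 0.05 in limma was found in 2, PB above and PBO below its controls. At this threshold the share of all ratios was 10.2% in PB and 28.6% in PBO. The ratio did not overlap with its controls in 2 of 15 comparisons, higher in MPy and lower in Nif, where 20.8% of comparisons of ratios did not overlap (12.2% in MPy and 16.3% in Nif).

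The group mean ratio was highest in PB at 6.29 ± 0.858 (SD, n = 3), followed by corn oil control set 4 at 6.11 ± 1.49 and ETH at 6.04 ± 0.900. It was lowest in PBO at 3.21 ± 0.371, followed by Nif at 3.94 ± 0.514 and control set 6 at 4.18 ± 1.57. Neighbors were compared in the order of the mean log2 ratio, in which ETH lay above control set 4. None of the 20 pairs of neighbors differed, and the largest step was 0.29 log2. The control sets of PB and of PBO were thus placed differently, since that of PB was itself among the lowest.

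In single animals, the ratio after PBO was 3.60, 2.86 and 3.18 against 3.53, 4.51 and 5.48 in set 5. The highest PBO animal lay just above the lowest control, and the log2 difference was -0.47 (SE 0.23, adjusted p = 0.167). After Nif the ratio was 4.15, 3.35 and 4.32 against 4.49, 5.56 and 6.35 in set 2. All Nif animals were below their controls, with a difference of -0.47 (SE 0.23, adjusted p = 0.572). The Nif difference was -0.20 against all methylcellulose controls, and with the deposited matrix it was 0.07.

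The ratio after ETH was 5.30, 7.04 and 5.79, and the difference from set 5 was 0.44 (SE 0.23, adjusted p = 0.326), with 2 of 3 animals above the highest control of 5.48. The ratio after AA was 6.80, 5.60 and 4.49 against 3.94, 4.64 and 4.20 in set 1, a difference of 0.38 (SE 0.23, adjusted p = 0.950). It was higher than all controls in 2 of 3 AA animals. After CPA the ratio was 4.11, 7.10 and 3.84 against 6.95, 7.00 and 4.39 in set 4, a difference of -0.31 (SE 0.23, adjusted p = 0.463). The CPA animals enclosed the range of the controls. In MPy the 3 animals had 4.67, 5.21 and 5.04, and the difference was 0.22 (adjusted p = 0.974).

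Among all 210 pairs of groups, 8 differed in the ratio (limma, adjusted over the ratios of a pair but not over pairs), where 5.28% of all ratios differed, and PBO was the lower group in 8 of 8. The pair of PBO and DES shared control set 5 and the dosing time of 3 days. DES had ratios of 6.67, 5.20 and 4.05, all above the highest PBO animal, and exceeded PBO by 0.70 log2 (adjusted p = 0.0416). This pair was singled out after its values were seen, and the doses differed. P-T172 differed in 5 of 210 pairs, beside 3.85% of all analytes, and of these 3 held Wy and 2 held DHEA as the lower group.

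**Figure D4:**
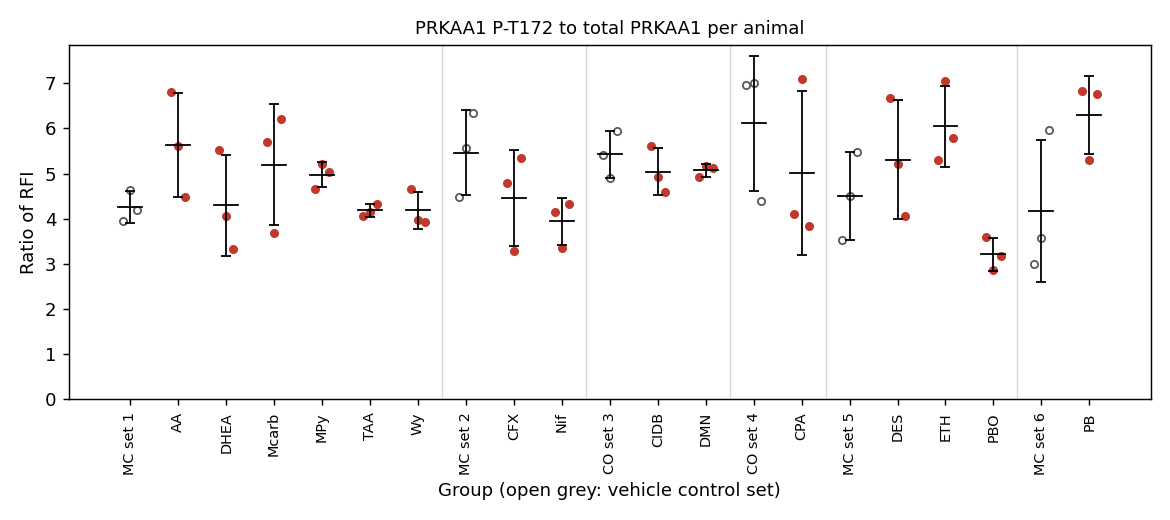
Ratio of PRKAA1 P-T172 to total PRKAA1 RFI per animal on a linear axis, with the mean and SD of 3 animals, for each control set (open, MC methylcellulose, CO corn oil) and the compounds labelled with it (filled). PBO has the lowest mean (3.21) and PB the highest (6.29), while set 6, the control of PB, spans 3.00 to 5.96.

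For the remaining compounds, CFX, CIDB, DES, DMN and Mcarb, no difference passed. The total PRKAA1 differences lay between -0.33 in Mcarb and -0.07 in DES and CFX, and the P-T172 differences between -0.37 in CFX and 0.16 in DES. The adjusted p of these 5 compounds was at least 0.613 for both analytes. Their ratios differed by -0.31 in CFX, -0.11 in CIDB, -0.09 in DMN, 0.23 in DES and 0.25 in Mcarb, and with the deposited matrix the CFX value was 0.29. The DMN animals had ratios of 4.92, 5.17 and 5.11, the group with the smallest SD (0.135). With an SE of 0.23 to 0.25 and 3 animals a group, differences of this size were not distinguishable from 0 here.

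Untreated groups gave the background for these values. In the 7 pairs of control sets with the same vehicle, none of the PRKAA1 values was called, with 2 values at an unadjusted p below 0.05 in limma. These were total PRKAA1 in corn oil set 3 over set 4 (0.54 log2, SE 0.23, adjusted p = 0.342) and in methylcellulose set 2 against set 6 (-0.48, SE 0.23, adjusted p = 0.694). In these pairs 11.4% and 6.33% of all analytes had an unadjusted p below 0.05. Several of the compound differences above were no larger than these.

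Total PRKAA1 also differed between the vehicles. The 6 corn oil controls had 0.160 to 0.407 RFI with a median of 0.292, and the 12 methylcellulose controls had 0.351 to 0.767 RFI with a median of 0.434. The mean of the 2 corn oil sets differed by -0.63 log2 from that of the 4 methylcellulose sets (SE 0.14, adjusted p = 0.00626), in a comparison in which 15.2% of analytes were called, all lower in corn oil. After centring, total PRKAA1 was the only analyte called (-0.36, SE 0.09, adjusted p = 0.0263, 0.633% of analytes). P-T172 differed by -0.30 (adjusted p = 0.133) and by -0.02 after centring (adjusted p = 0.947). The ratio was 0.34 higher in corn oil (adjusted p = 0.158). This comparison was added after the values were seen, and the vehicle cannot be told apart from the sets that received it. Without corn oil set 4 the difference in total PRKAA1 was -0.36 (adjusted p = 0.581), without its replicate 3 it was -0.49 (adjusted p = 0.162) and without replicate 4 of set 3 it was -0.55 (adjusted p = 0.0896).

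To compare the compound classes, each compound was 1 unit. Its value was the mean over 3 animals of their log2 ratios, with the median of the labelled controls as the reference. These values differ from the differences of group means given above. There were 8 NGC (AA, DES, DHEA, ETH, Mcarb, MPy, PB and PBO), 2 GC (CIDB and DMN) and 2 NC (CFX and Nif). CPA, TAA and Wy were left out as undefined. The ratio was on average 0.66 log2 higher in NGC than in NC (SE 0.25, limma adjusted p = 0.217, exact permutation p = 0.0444 where the smallest possible is 0.0222), with 4.08% of ratios called. Against the control medians the NGC ranged from -0.50 to 0.81 and the NC from -0.50 to -0.34. Without PBO, the lowest NGC, the difference was 0.76 (adjusted p = 0.0224), and against the median of all controls of the vehicle it was 0.26 (adjusted p = 0.911). Both NC compounds share control set 2, whose ratio was the highest of the methylcellulose sets. Total PRKAA1 differed by -0.38 between NGC and NC (adjusted p = 0.633) and by -0.04 between NGC and GC (adjusted p = 0.935), and P-T172 by 0.00436 and 0.16 (adjusted p = 0.994 and 0.846). Against all controls of the vehicle the difference in total PRKAA1 between NGC and GC was -0.43 (adjusted p = 0.135).

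Other proteins that act with or below AMPK were taken from a list of 35 symbols, of which 10 were on the arrays as 22 analytes, 9 of them modified forms. The direct substrates of AMPK in fat synthesis and its beta and gamma subunits were not among them. Over the 15 compounds 8 of 330 comparisons of list analytes were called, that is 2.42% against 3.16% of all analytes, with 8 lower and 0 higher. Phosphorylated ribosomal protein S6 (RPS6_P-S235/S236), a readout of S6 kinases below mTOR, was lower after DHEA, Wy, DES and PBO. GSK3B_P-S9, the phosphorylated and thereby inhibited form of a glycogen synthase kinase, was lower after DHEA and Wy, and HNF4A was lower after CIDB and PB. Over all analytes, 8 calls were lower and 2 higher after DHEA, 12 and 2 after Wy, and 3 and 1 after DES. They were 5 and 3 after PB, 5 and 7 after CIDB, and 2 and 8 after PBO. DHEA and Wy share set 1, and DES and PBO share set 5, so the list calls are not independent.

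The S6 signal was 0.560 to 1.42 RFI after DHEA and 1.33 to 2.44 RFI after Wy against 4.52 to 9.66 RFI in set 1 for RPS6_P-S235/S236. The log2 differences were -2.87 (adjusted p = 0.00124) and -2.00 (adjusted p = 0.0228). After DES it was 1.05 to 2.64 RFI and after PBO 1.39 to 5.21 RFI, against 8.16 to 12.7 RFI in set 5, with differences of -2.65 (adjusted p = 0.00408) and -1.87 (adjusted p = 0.0466). The controls of set 6 had 0.945 to 3.66 RFI, below all controls of sets 1 and 5, so the size of these differences depended on the reference. Against all methylcellulose controls the difference was still called after DHEA (-2.61, adjusted p = 5.26e-05), Wy (-1.74, adjusted p = 0.00572) and DES (-1.68, adjusted p = 0.0341). For PBO it was -0.89 and not called (adjusted p = 0.245). After centring it was called after DHEA, Wy, DES and PBO.

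GSK3B_P-S9 was 0.104 to 0.173 RFI after DHEA and 0.124 to 0.150 RFI after Wy, below the 0.223 to 0.279 RFI of set 1. The log2 differences were -0.83 (adjusted p = 0.00652) and -0.86 (adjusted p = 0.00320), and both held after centring and against all methylcellulose controls. These are the compounds with the lowest PRKAA1 P-T172, and all values share the set 1 animals. HNF4A was 1.44 to 1.75 RFI after PB against 2.09 to 2.93 RFI in set 6, with a difference of -0.59 (adjusted p = 0.0350) that was -0.18 after centring (adjusted p = 0.419). HNF4A after CIDB was 1.24 to 1.51 RFI against 1.71 to 2.23 RFI in set 3, a difference of -0.54 (adjusted p = 0.0382) that was -0.41 against all corn oil controls (adjusted p = 0.102).

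Against the labelled controls, the list's median lay near that of all analytes after PB, DHEA and Wy. It lay further off after CPA (0.14 beside 0.23). Against all methylcellulose controls it did so after DHEA as well (-0.34 beside -0.17). With the labelled controls, the median log2 difference of the 22 list analytes was -0.34 after PB, -0.25 after DHEA and -0.11 after Wy. Over all analytes it was -0.29, -0.18 and -0.10. Phosphorylated S6 kinase (RPS6KB1_P-T389) was the lowest list analyte after CPA (-0.90, adjusted p = 0.185). Among the highest list values were RPS6_2 after DES (0.57) and PBO (0.95), RPS6_P-S235/S236 after PB (0.43), PPARA_2 after Wy (0.10) and CREB1 after DHEA (-0.07). The lowest were RPS6_P-S235/S236 after ETH (-1.42) and Nif (-1.70) and RPS6_2 after AA (-1.07). None of these passed the test.

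Over the 21 group means, with each animal centred on its median, total PRKAA1 was most like ELK1, a transcription factor phosphorylated by MAP kinases (Spearman 0.851). Next were the phosphorylated kinase RSK1 (RPS6KA1_P-S380, 0.744), ERK1 phosphorylated in its activation loop (MAPK3_P-T202/Y204, 0.683), CYP1A2_1 (0.645) and RPS6_1 (0.581). The least like were EIF2A_P-S51 (-0.718) and PPARA_2 (-0.617). Over group means without centring these were 0.0805 and 0.353. Within groups, over animal deviations, the correlation with ELK1 was 0.428 and that with MAPK3_P-T202/Y204 was -0.188, so the likeness between group means was not carried over to single animals for the latter.

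PRKAA1 P-T172 was most like ELK1 as well (0.619), and HNF4A (0.562), AKT1 (0.503) and CYP3A4_1 (0.431) were also among the analytes most like it. Over animal deviations within groups these correlations were 0.0998 for ELK1, 0.368 for HNF4A, -0.217 for AKT1 and -0.129 for CYP3A4_1. The least like were PPARA_3 (-0.584) and IGFBP1 (-0.578). Over group means without centring these were 0.162 and 0.0325. Total PRKAA1 and P-T172 had a correlation of 0.390 over the group means, which placed P-T172 at rank 27 of 157 other analytes in likeness to total PRKAA1. Within groups it was 0.0547 after centring and 0.489 without centring. Correlations over 21 groups on shared arrays are a description and were not tested.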

How the data were processed

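Lysates of 63 rat livers were measured on ZeptoMARK reverse-phase protein arrays. The authors deposited, for each animal, relative fluorescence intensity (RFI) values on a linear scale for 158 analytes; per the study's methods, the local background was taken off each spot, array position effects were normalized and replicate spots were averaged. The methods also describe a blank with the secondary antibody alone and a correction for it. Whether the RFI already hold that correction is not given with the values, and 25 of 9954 values (0.251%) were at or below 0, none of them a PRKAA1 value. Animals whose lysates had a stronger overall signal have higher values in most analytes, since no scaling between animals was added here. The authors also deposited a matrix of log2 ratios to the median of control animals with imputed values, which served as an alternative; 0 of its columns lacked a sample, and the offsets of its columns against the RFI were not explained.

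Groups, doses, times and control sets came from the labels. No sample was left out. Nothing in the labels says more of the replicates than that they are separate animals. No 2 animals had the same PRKAA1 values. The log2 of each positive RFI was taken, and other values were treated as missing. A mean per group was fitted for each analyte over all 63 animals in R 4.3.3 with lmFit and eBayes of limma 3.58.1, and each compound was compared with its labelled control set. Two-sided p-values were adjusted (Benjamini-Hochberg) over the 158 analytes tested in each comparison, and a difference was called at an adjusted p below 0.05. The log2 ratio of P-T172 to total PRKAA1 was fitted with all 49 ratios of a modified analyte to an unmodified analyte of the same symbol, adjusted over these. Comparison with all controls of a vehicle used the mean of its set means. For compound classes, the mean over animals of the log2 ratio to the control set's median was fitted with the compound as the unit. The alternatives were scaling (each animal centred on its median), the reference, the deposited matrix, a fit of 6 animals, trend and robust shrinkage, filling missing values from 5 nearest neighbors, log2(RFI + 0.1), leaving out analytes with a median RFI below 0.2 (137 kept), a replicate block and leaving out each animal. The comparisons with the labelled sets paired no animals, and the replicate block was an alternative only. Deviations of same-numbered animals of CPA and corn oil set 4 correlated at 0.307, 0.219 and 0.159. The labels do not say whether they are pairs. The procedure was tested on simulated data with known changes.

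PRKAA1, the list of AMPK pathway symbols and the cell type markers were chosen with earlier results of these data known. Described in full are called comparisons, the 3 largest differences in each direction for each PRKAA1 value, and the called and the extreme list analytes in those compounds. Likeness names the 5 highest and 2 lowest Spearman correlations over group means. Some analytes that these rules name are not reported here.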

Additional observations from a re-analysis of the deposited data

How the results depend on the processing

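Of 954 alternative values, 918 left a PRKAA1 value or a list count on the same side of the threshold, 60 of them with a changed sign where no call was made in either, and 0 reversed a called value. The decrease of total PRKAA1 in PB was called under 7 of 16 alternatives. It was not called after centring (-0.42), against all methylcellulose controls (-0.53), with the deposited matrix (-0.32), in a fit of its 6 animals alone (-0.83), or with centring and all methylcellulose controls together (-0.30), an alternative added after the data were seen. Leaving out single animals gave -1.01 to -0.59. The call ended without replicate 1 of control set 6 and when any single PB animal was left out.

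Other differences passed only under an alternative. In Wy, total PRKAA1 passed after centring (-0.53), against all methylcellulose controls (-0.60), with both (-0.49) and in its 6 animals (-0.62), and P-T172 against all methylcellulose controls (-0.70), with both (-0.60) and in its 6 animals (-0.65). In DHEA, total PRKAA1 passed against all methylcellulose controls (-0.61) and with both (-0.38), and leaving out single animals gave -0.83 to -0.42, with a call at -0.83 without DHEA replicate 3. P-T172 in DHEA passed against all methylcellulose controls (-0.71). P-T172 in PBO passed against all methylcellulose controls (-0.63) and with both (-0.65), and total PRKAA1 in MPy with both (-0.37). The ratio in PB ranged from 0.44 to 0.93 without single animals. Without PBO the ratio difference passed for NGC over NC (0.76) and for all carcinogens over NC (0.66), whereas against all controls of the vehicle these were 0.26 and 0.20 (adjusted p = 0.911 and 0.729). Total PRKAA1 in corn oil against methylcellulose was -0.73 to -0.49 without single animals and -0.36 without set 4, and P-T172 was -0.44 to -0.041 without single animals, with a call at -0.44 without replicate 1 of set 4. The cause of these changes was not tested.

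The number of called list analytes moved in CIDB from 1 to 2 after centring and to 0 against all corn oil controls. In ETH it moved from 0 to 1 after centring. In PB it moved from 1 to 0 under either, and in DHEA from 2 to 5 against all methylcellulose controls. In Wy it moved from 2 to 3 under either, with MTOR_P-S2448 added. In PBO it stayed at 1, but against all methylcellulose controls the called analyte was HNF4A in place of RPS6_P-S235/S236.

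With a replicate block for the numbers shared by PB and set 6 and by CPA and set 4, total PRKAA1 differed by -0.83 in PB (adjusted p = 0.0242) and by 0.48 in CPA (adjusted p = 0.222), and no call changed. In PB the same-numbered animals did not deviate together (correlations 0.0328, 0.00721 and 0.0685). The labels do not say whether shared numbers are pairs.

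The number of animals limits the precision. With 3 a group, the 95% interval of the total PRKAA1 difference ran from -1.09 to -0.17 in DHEA and from -1.08 to -0.16 in Wy. Arrays give no counts from which a depth could be had. The deposited matrix, per the study's methods relative to the median of the corresponding controls but with column offsets against the RFI that were not explained, ranked total PRKAA1 as the second best match to its own name over 45 treated animals (Spearman 0.562) and P-T172 as the best (0.513).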
